A study of Mus musculus with 48 samples.

Results

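Livers of heterozygous Wfs1 mutant mice (HZ, Wfs1 +/-) were compared with livers of wild type mice (WT, Wfs1 +/+) among mice that had received valproic acid (VPA). The comparison rested on 16 arrays of a series of 48, with 8 HZ and 8 WT mice and 1 array per mouse, chosen by the genotype and treatment in the sample labels. All were male, had been injected with VPA at 300 mg/kg into the peritoneum each day for 12 weeks from an age of 4 to 6 weeks, and were killed at 16 to 18 weeks. A glucose tolerance test (2 g/kg) was made 24 hours after the last injection and the liver was taken 24 hours after that test, so all mice had been without VPA for that time and had received glucose. The HZ and WT mice given saline at 10 mL/kg, 8 of each, and the KO mice (Wfs1 -/-) of both treatments, 8 of each, served for comparison. The mutation is inherited and not limited to the liver, and each HZ mouse keeps 1 intact copy of Wfs1.

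Wfs1 encodes wolframin, which sits in the membrane of the endoplasmic reticulum (ER). Loss of both copies in people causes Wolfram syndrome, with diabetes, and cells that lack the protein handle misfolded proteins and calcium in the ER poorly. VPA is an anticonvulsant and mood stabilizer. It inhibits histone deacetylases, is broken down in the liver by the enzymes of fatty acid oxidation, and can cause weight gain and fat storage in the liver. The question of the comparison was whether 1 mutant copy of Wfs1 changes the liver transcriptome of mice that are under the drug.

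The values are probeset levels on the log2 scale, so a difference of 1 is 2-fold, and each difference is HZ minus WT with its standard error (SE) from a limma fit to all 48 arrays. The precision is limited by the number of mice. Array medians of the 16 mice lay between 6.92 and 7.00 and the correlations between arrays between 0.979 and 0.993. The correlation averaged 0.987 within the genotypes and 0.987 between them, and no 2 arrays were identical. Hepatocyte markers were at the top of the range in every mouse, with a mean level over 10 genes of 13.55 to 13.80 in HZ and 13.60 to 13.78 in WT mice. A probeset with a mean below 5 is called dim here.

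Under VPA, 1 of 35556 probesets passed an adjusted p under 0.05 between HZ and WT mice (limma, Benjamini-Hochberg), which is 0.00281% of those tested. It was that of Abhd1, which was higher in HZ mice, and every other probeset had an adjusted p of 1. At an unadjusted p under 0.05, 1023 probesets passed (2.88%), 484 higher (1.36%) and 539 lower (1.52%) in HZ mice. The median difference over all probesets was -0.01, and 163 differed by more than 0.5. Differences of more than 1 were found for 4 probesets, of which 2 have no gene symbol and the others belong to Abhd1 and Klk1b22. At the thresholds of the study for a genotype effect, an unadjusted p under 0.001 and more than 2-fold, 1 probeset passed (0.00281%), again that of Abhd1. The 8 HZ and 8 WT mice did not overlap for 2 probesets (0.00562%), one without a symbol and the dim 4930584F24Rik, which lay between 4.38 and 4.71 in HZ and between 4.71 and 4.87 in WT mice. The count of 1023 became 1715 without HZ VPA replicate 7, while Abhd1 stayed the only probeset past the adjusted p. With the 16 arrays fitted alone no probeset passed, and Abhd1 then had an adjusted p of 0.0854.

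The probeset of the mutated gene itself (Wfs1, 10529605, chromosome 5 of GRCm38 from 36966104 to 36988982) did not separate the genotypes. Its lowest, median and highest levels were 8.10, 8.46 and 8.84 in HZ mice and 7.94, 8.50 and 8.98 in WT mice. The ranges overlapped almost entirely and the difference was 0.003 (SE 0.10), with p = 0.981 in a two-sided exact permutation test over the 12870 splits of the 16 mice. The mutation invalidated part of the exons, and since the probeset value summarizes all its probes, it does not check the genotype.

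Abhd1 (probeset 10520622, chromosome 5 from 30950066 to 30955095) encodes a protein of the alpha/beta hydrolase fold. Its lowest, median and highest levels were 8.86, 10.46 and 10.71 in HZ mice and 8.49, 8.94 and 9.07 in WT mice. Of the HZ mice, 7 lay above all WT mice, and HZ VPA replicate 7, at 8.86, lay inside the WT range. The next HZ mouse was at 10.11. Abhd1 averaged 10.27 ± 0.60 in HZ and 8.86 ± 0.21 in WT mice (SD, n = 8 each), a rise of 1.41 (SE 0.16, adjusted p = 8.15e-07 from limma), or 2.66-fold, and p = 0.000777 in the exact permutation test, where the smallest possible is 0.000155. The SE of 0.16 pools the spread of all 6 groups, while the HZ mice given VPA had an SD of 0.60. With the 16 arrays fitted alone the adjusted p was 0.0854 from limma. Without HZ VPA replicate 7 the rise was 1.61. HZ mice given saline averaged 10.33 ± 0.16 and WT mice given saline 8.69 ± 0.31 (SD, n = 8 each), a rise of 1.65 (adjusted p = 7.07e-09 from limma). The change under VPA minus that under saline was -0.24 (SE 0.23), which did not pass (adjusted p = 0.783 from limma). KO mice were 2.11 above WT mice under VPA, so that HZ mice lay between the other genotypes. That comparison shares its WT mice with the HZ one.

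**Figure D1:**
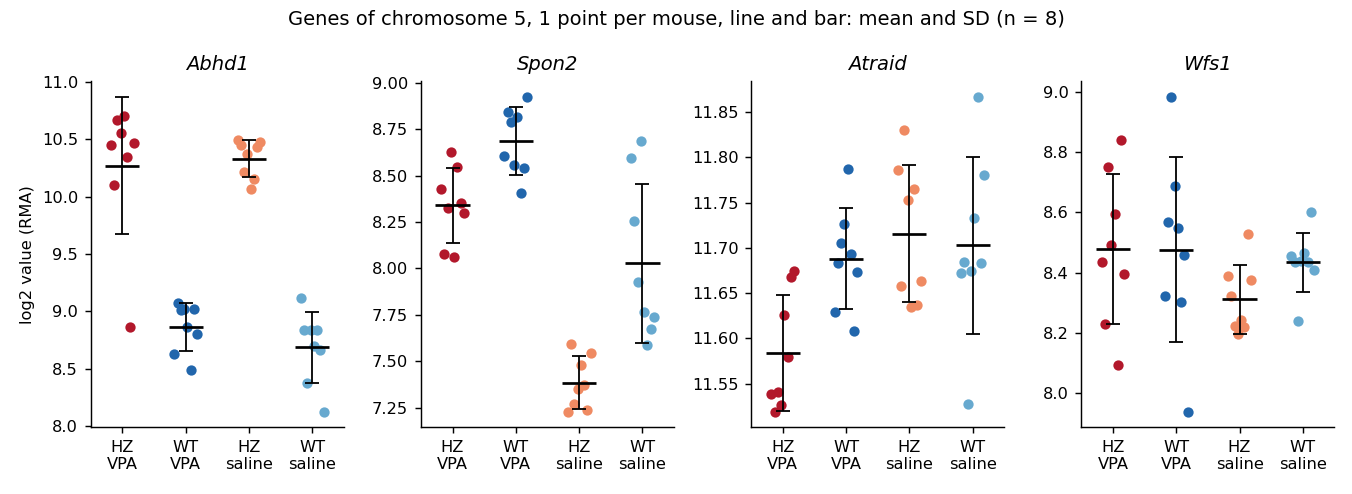
Levels (log2, RMA) of Abhd1, Spon2, Atraid and Wfs1, all on chromosome 5, in HZ and WT mice given VPA and HZ and WT mice given saline, where each point is a mouse, the line the mean and the bar the SD. For Abhd1, 7 of 8 HZ mice given VPA lie above all WT mice and 1 lies at 8.86 among the WT mice, while for Wfs1 the groups given VPA overlap.

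Abhd1 lies 6.02 Mb from Wfs1 on the same chromosome, so the genes of this stretch were looked at as a group. Of 173 measured genes of chromosome 5 within 10 Mb of Wfs1, 2 were higher and 8 lower at an unadjusted p under 0.05, which is 5.78% beside 2.54% of all 19938 genes, and 1, Abhd1, passed the adjusted p. Their median difference was -0.01, as it was over all genes, and the others ranged down to -0.35. The direct neighbours of Abhd1 differed little. Preb, which overlaps Abhd1 and encodes an ER protein that starts the budding of transport vesicles, differed by 0.09 (SE 0.08), and the 3 genes before Abhd1, of which Khk encodes the first enzyme of fructose breakdown, by -0.05 to -0.002.

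KO and WT mice given saline, which share no array with the mice given VPA, offered a separate choice of genes in this stretch. Between them 281 probesets passed the adjusted p (0.79% of those tested), among them 6 genes within 10 Mb of Wfs1. In HZ mice given VPA, 5 of these 6 differed from WT in the direction of the KO mice, and Khk (-0.05, SE 0.08) did not. Besides Abhd1, the clearest was Spon2 (chromosome 5 from 33213518 to 33218254), which encodes a secreted matrix protein with a part in innate immunity. Its lowest, median and highest levels were 8.06, 8.34 and 8.63 in HZ and 8.40, 8.70 and 8.93 in WT mice. All 8 HZ mice were below the WT mean and 5 were below every WT mouse. The difference was -0.35 (SE 0.14), with an unadjusted p of 0.0178 and an adjusted p of 1 from limma. It was -0.64 between HZ and WT mice given saline, where it passed (adjusted p = 0.0255), and -1.21 between KO and WT mice given VPA.

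Atraid, which encodes a membrane protein of the lysosome and lies on chromosome 5 from 31048640 to 31054633, differed by -0.10 (SE 0.05), with a range of 11.52 to 11.67 in HZ and 11.61 to 11.79 in WT mice. All 8 HZ mice were below the WT mean and 5 were below every WT mouse. Between the genotypes given saline it differed by 0.01, and between KO and WT mice given VPA by -0.22. Supt7l, a subunit of a histone acetyltransferase complex, differed by -0.08 (SE 0.11), and Pisd, which makes phosphatidylethanolamine in mitochondria, by 0.08 (SE 0.06). Over all 281 probesets, 178 differed under VPA in the direction they had between KO and WT mice given saline, where 52.1% of all probesets had the same sign in both. Their median difference in that direction was 0.54 between KO and WT mice given saline and 0.03 between HZ and WT mice given VPA.

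Apart from Abhd1 no gene passed, so the genes with the smallest p describe only where HZ and WT mice given VPA stood furthest apart for their spread, and their adjusted p was 1 throughout. Higher in HZ mice was Piezo2, a channel opened by mechanical force, with 6.63, 6.93 and 7.14 as the lowest, median and highest level in HZ and 6.26, 6.58 and 6.86 in WT mice. All 8 HZ mice were above the WT mean and 5 were above every WT mouse, for a difference of 0.34 (SE 0.08, unadjusted p = 0.000222 from limma). It was 0.17 under saline and 0.56 between KO and WT mice given VPA. The other 2 probesets of Piezo2 differed by -0.03 and 0.09, so the gene's probesets did not agree. Gss, which makes glutathione, lay between 9.43 and 10.61 in HZ and between 9.13 and 9.91 in WT mice and differed by 0.43 (SE 0.13), or by 0.25 without HZ VPA replicates 4 and 8, which are described further on. Dctpp1, which removes damaged nucleotides from the pool for DNA synthesis, differed by 0.17 (SE 0.05), Mri1 of the methionine salvage pathway by 0.28 (SE 0.09), and the adhesion molecule Alcam by 0.29 (SE 0.10). Btk, a kinase of B cells and myeloid cells, lay between 5.87 and 6.16 in HZ and between 5.57 and 5.99 in WT mice, with a difference of 0.23 (SE 0.07). Among probesets with 1 gene symbol the largest difference after Abhd1 was that of Klk1b22, a protease of the kallikrein family with many near-identical members, at 1.22 (SE 0.51). It ran from 4.70 to 7.63 in HZ and from 4.53 to 6.52 in WT mice, and 6 HZ mice were above every WT mouse although the ranges overlapped.

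Lower in HZ mice was Car5a, the mitochondrial carbonic anhydrase that supplies bicarbonate to the urea cycle and gluconeogenesis. Its lowest, median and highest levels were 10.07, 10.28 and 10.44 in HZ and 10.37, 10.62 and 10.90 in WT mice. All 8 HZ mice were below the WT mean and 6 were below every WT mouse, for a difference of -0.34 (SE 0.08, unadjusted p = 0.000205 from limma). Mas1, a receptor of the renin-angiotensin system, lay between 5.11 and 5.38 in HZ and between 5.23 and 5.83 in WT mice and differed by -0.25 (SE 0.08), with 7 HZ mice below every WT mouse. Ednrb, the type B endothelin receptor, differed by -0.35 (SE 0.11) and Tmem218, a membrane protein of cilia, by -0.25 (SE 0.08). Try10, a trypsin, differed by -0.37 (SE 0.11). Of 6 pancreas markers 1 was higher in HZ mice, and their median difference was -0.12. The mean level of these markers was 6.84 to 7.11 in HZ and 6.90 to 7.11 in WT mice. Pclo, a scaffold of synapses, differed by -0.32 (SE 0.10).

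Several of these genes stood the other way round in mice given saline, though their choice on the VPA mice favours a difference between the treatments. Car5a averaged 10.84 ± 0.23 in HZ and 10.56 ± 0.12 in WT mice given saline (SD, n = 8 each), a difference of 0.28 against -0.34 under VPA. The change under VPA minus that under saline was -0.62, with an adjusted p of 0.0863 from limma, which did not pass. Mas1 differed by 0.29 in saline and -0.25 in VPA mice (difference -0.54, adjusted p = 0.103). Alcam differed by -0.35 in saline and 0.29 in VPA mice (difference 0.64, adjusted p = 0.197), and Gss by -0.32 and 0.43 (difference 0.76, adjusted p = 0.262). Ednrb, by contrast, differed by -0.37 in saline mice, close to its value under VPA (difference 0.02, SE 0.16). For the difference between the treatments, 0 probesets passed the adjusted p in limma, the lowest being 0.0746, while 2754 (7.75%) had an unadjusted p under 0.05. With the 32 arrays of HZ and WT mice fitted alone 12 passed.

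**Figure D2:**
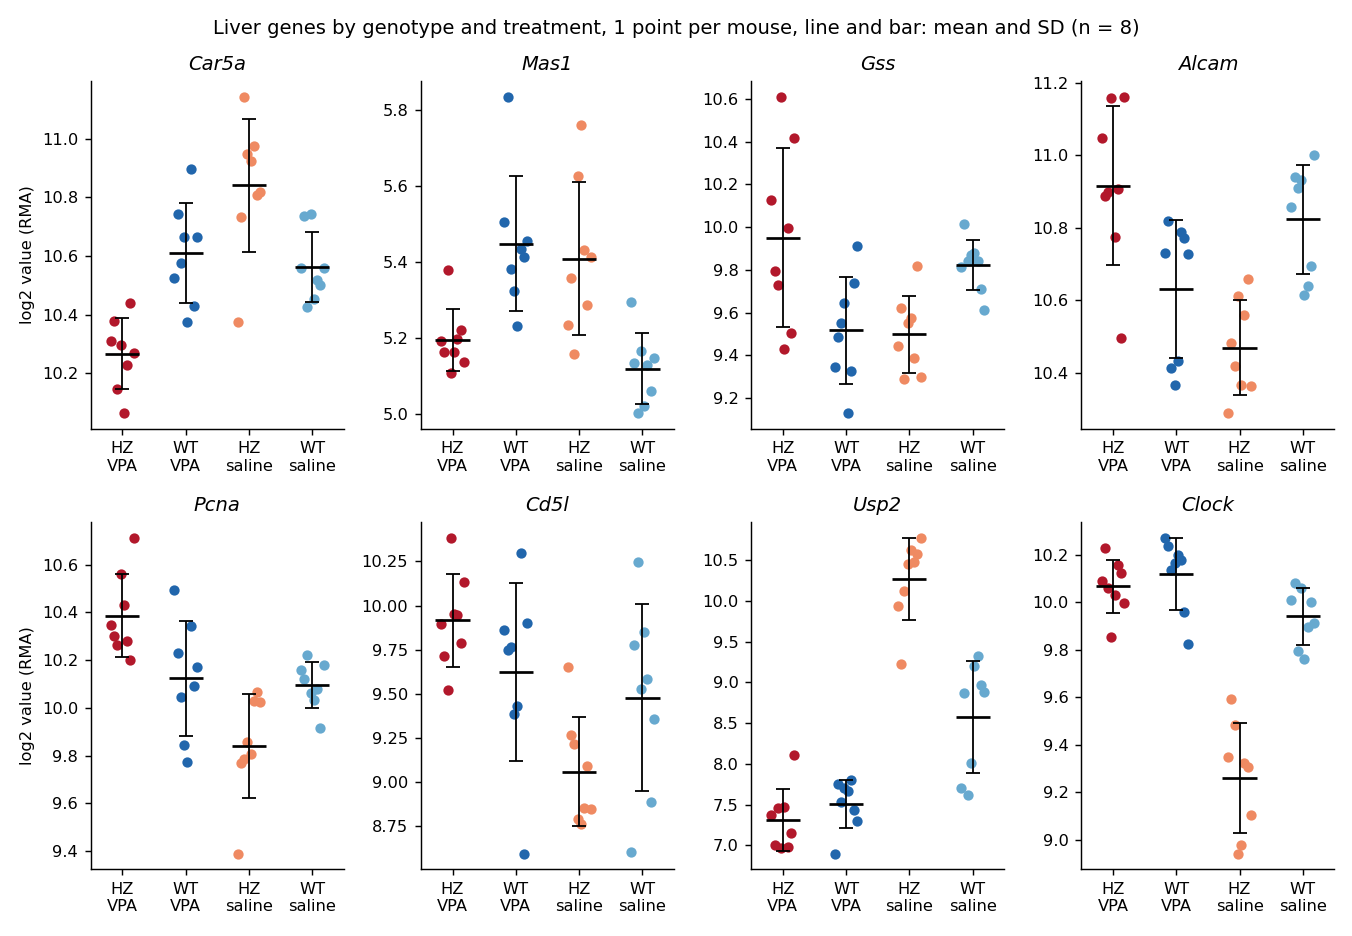
Levels (log2, RMA) of Car5a, Mas1, Gss, Alcam, Pcna, Cd5l, Usp2 and Clock in HZ and WT mice given VPA and HZ and WT mice given saline, where each point is a mouse, the line the mean and the bar the SD. Car5a is lower in HZ than WT mice under VPA (10.27 and 10.61) and higher under saline (10.84 and 10.56), while Usp2 and Clock separate the genotypes in saline mice and overlap in VPA mice.

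Between HZ and WT mice given saline 108 probesets passed the adjusted p (0.304%), 44 higher and 64 lower in HZ mice, and these were followed in the mice given VPA, which share no array with them. When each mouse's clock phase, by the index described further on, was added to the fit, 1 probeset passed between the saline mice, and with array weights 364 did. That index is made of clock genes, among them Clock, Arntl, Ciart, Per3 and Tef of the 108. Its ranges nearly met but did not overlap between the saline genotypes, with the highest HZ mouse at -0.689 and the lowest WT mouse at -0.686. Fewer calls are thus partly built in, and that fit cannot separate clock phase from genotype. Of the 108, 61 differed in the same direction under VPA, where 44.4% of all probesets had the same sign in both treatments, and 1, Abhd1, passed the adjusted p. Unadjusted, 4 passed in the same direction and 0 in the opposite one. Their median difference in the direction of the saline mice was 0.46 in saline and 0.009 in VPA mice. Among the 97 with 1 gene symbol, 96 differed by less than 0.5 under VPA. The difference between the treatments had an unadjusted p under 0.05 for 103 of the 108, a count that the choice of the probesets on saline mice favours.

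**Figure D3:**
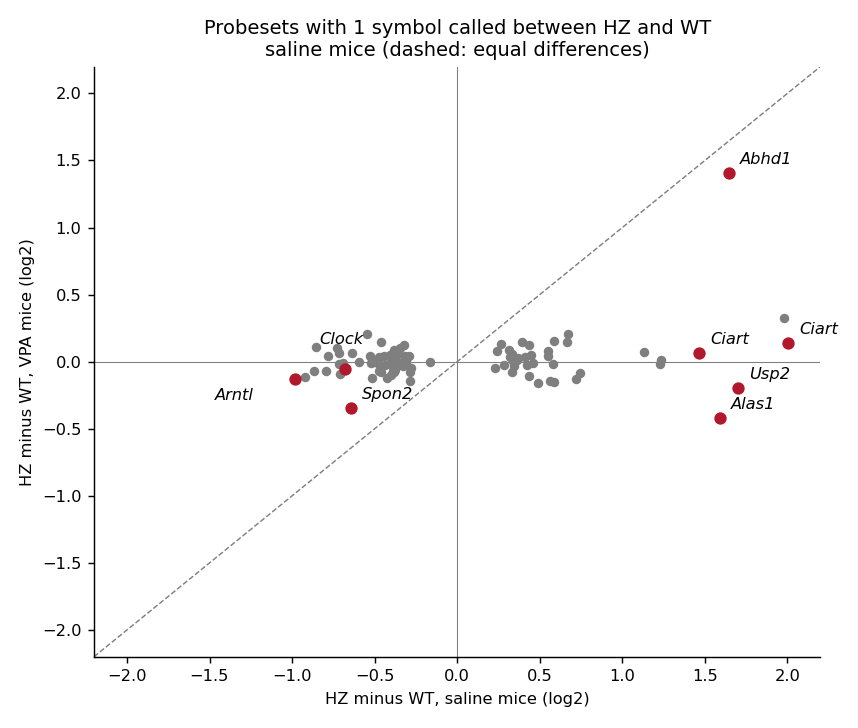
Difference between HZ and WT mice (log2) in saline mice on the x axis and in VPA mice on the y axis for the 97 probesets with 1 gene symbol past the adjusted p between HZ and WT mice given saline, with equal differences on the dashed line. Abhd1 (1.65 and 1.41) lies near the dashed line, Ciart, Usp2 and Alas1 differ by over 1 in saline mice and by 0.14, -0.20 and -0.42 in VPA mice, and nearly all others lie near 0 under VPA.

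The circadian clock is a loop in which the activators Clock and Arntl drive the genes of their own repressors, and it sets the daily rhythm of liver metabolism. Between HZ and WT mice given saline 2 of 3 measured activators, 3 of 10 repressors and 1 of 4 output factors passed the adjusted p. Over all 19938 genes 37 passed as higher and 56 as lower. Clock was 9.26 ± 0.23 in HZ and 9.94 ± 0.12 in WT mice given saline (SD, n = 8 each), a fall of 0.68 (adjusted p = 0.000193 from limma). Under VPA it lay between 9.85 and 10.23 in HZ and between 9.82 and 10.27 in WT mice, a difference of -0.05 (SE 0.10). Arntl differed by -0.98 in saline and by -0.13 (SE 0.23) in VPA mice, and the repressor Ciart by 2.00 and 0.14 (SE 0.41). Of rhythmic output genes, Usp2, a deubiquitinase, differed by 1.70 in saline and -0.20 (SE 0.31) in VPA mice, and Alas1, the first enzyme of heme synthesis, by 1.59 and -0.42 (SE 0.31). The transcription factor Dbp, a direct output of the clock, differed by 1.12 in saline and by 0.13 (SE 0.29) in VPA mice. The tests of these differences between the treatments gave adjusted p of 0.203 to 0.598 in limma, so none passed.

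Among all 17 clock genes and factors measured (3 activators, 10 repressors and 4 output factors), none had an unadjusted p under 0.05 between HZ and WT mice given VPA. The nuclear receptor Nr1d1 came nearest, at 10.72, 11.05 and 11.98 as the lowest, median and highest level in HZ and 9.86, 10.46 and 11.89 in WT mice, and all 8 HZ mice lay above the WT mean (difference 0.62, SE 0.31). Its relative Nr1d2 differed by 0.20 (SE 0.12). An index of clock phase per mouse, the mean of 13 clock genes with 4 taken as positive and 9 as negative by their phase, was 0.91 ± 0.31 in HZ and 1.08 ± 0.30 in WT mice given VPA, and -1.09 ± 0.23 in HZ and -0.22 ± 0.45 in WT mice given saline (SD, n = 8 each). Its ranges overlapped between HZ and WT mice given VPA, from 0.50 to 1.26 and from 0.67 to 1.63 in HZ and WT mice. Within each genotype all mice given VPA lay above all mice given saline, though the highest WT mouse given saline was at 0.63. The hour at which each mouse was killed was not used here, and the part of the clock in the contrast between the treatments was not tested.

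Gene lists of liver pathways and cell types were then described by their counts and medians. Of 492 listed genes 445 were measured, and 11 were higher and 5 lower in HZ mice given VPA at an unadjusted p under 0.05. This is 3.6% of them beside 2.54% of all genes, with 1 probeset for each gene in both. No list member passed the adjusted p. In 28 of 38 lists no member had an unadjusted p under 0.05, and 33 lists had a median difference within 0.1 of 0. The lists furthest out were cholesterol synthesis and fatty acid synthesis on the lower side, and DNA replication and mitosis on the higher side.

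**Figure D4:**
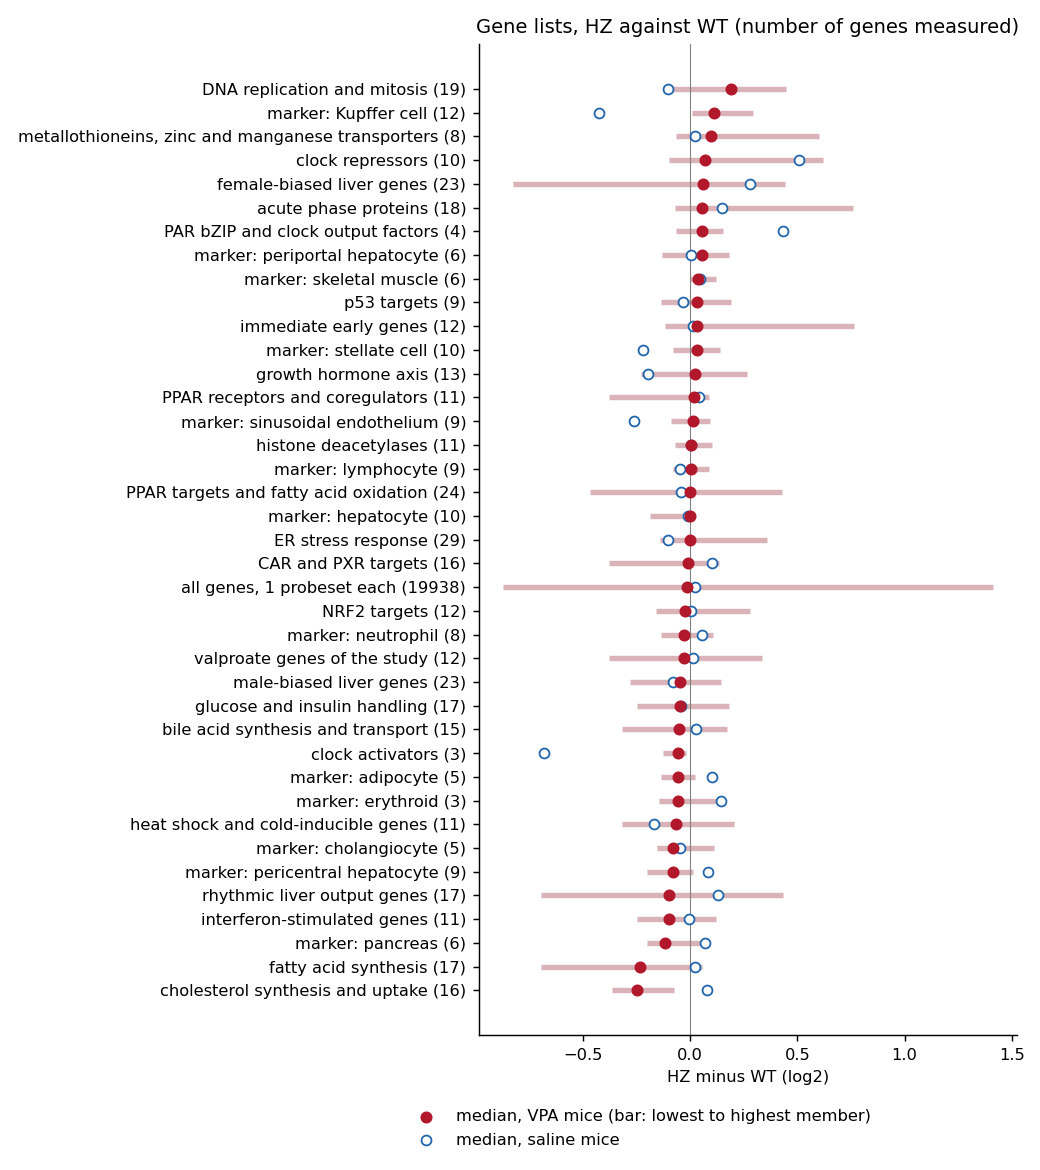
Median difference between HZ and WT mice (log2) over the genes of each list, as filled points for VPA mice with a bar from the lowest to the highest member, and as open points for saline mice, with the number of measured genes in brackets. Under VPA the medians run from -0.25 (cholesterol synthesis and uptake) to 0.19 (DNA replication and mitosis), and the clock and Kupffer cell lists stand further from 0 in saline than in VPA mice.

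The cholesterol list holds enzymes that build sterols from acetate, and their regulators. All 16 measured members were lower in HZ than in WT mice given VPA, with a median of -0.25 and a range from -0.36 to -0.08, beside a median of -0.01 over all genes, of which 8453 of 19938 were higher. Of these members, 2 had an unadjusted p under 0.05, which is 12.5% beside 2.54% of all genes. Fdps, which makes farnesyl diphosphate, lay at 11.33, 12.05 and 12.16 as the lowest, median and highest level in HZ and at 12.03, 12.25 and 12.55 in WT mice, a difference of -0.29 (SE 0.11), with all 8 HZ mice below the WT mean. Nsdhl, which removes methyl groups from sterols, differed by -0.23 (SE 0.10). Cyp51 and Sqle, both late steps of the pathway, differed by -0.36 (SE 0.18) and -0.30 (SE 0.19). HZ VPA replicate 2 was the lowest of all 16 mice for Fdps, Nsdhl and Sqle, and without it the list's median was -0.18. The same list had a median of 0.08 between HZ and WT mice given saline. The difference between the treatments had an unadjusted p under 0.05 for 5 of the 16, all negative. Over all 19938 genes, 1058 negative and 697 positive differences passed it.

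The fatty acid synthesis list had a similar median, but no member had an unadjusted p under 0.05. Of 17 measured genes 15 were lower in HZ mice given VPA, with a median of -0.23, while the median was 0.02 in saline mice. Me1, malic enzyme, which provides NADPH for the pathway, lay between 11.03 and 11.94 in HZ and between 11.14 and 12.62 in WT mice (difference -0.42, SE 0.22). Elovl6, an elongase of saturated fatty acids, differed by -0.40 (SE 0.22) and Fasn, fatty acid synthase, by -0.31 (SE 0.20). Pnpla3, a lipid droplet enzyme, differed by -0.70 (SE 0.43), but WT VPA replicate 2 lay at 10.79, above the next WT mouse at 9.18, and without it the difference was -0.43 and the list's median -0.14.

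DNA replication and mitosis genes were higher in HZ mice given VPA for 18 of 19 measured members, with a median of 0.19. Of the members 5 had an unadjusted p under 0.05, which is 26.3% beside 2.54% of all genes. These were Top2a, a topoisomerase of dividing cells (0.45, SE 0.18, with 0.15 for its other, dim probeset), Ccna2, cyclin A (0.36, SE 0.16), Mcm3 (0.27, SE 0.12) and Mcm7 (0.18, SE 0.09) of the replicative helicase, and Pcna, the clamp of the replication fork (0.26, SE 0.11). The levels by mouse showed that 2 HZ mice carried most of this. Top2a was 6.83 in HZ VPA replicate 4 and 6.74 in replicate 8, while the other HZ mice lay between 5.18 and 6.18 and the WT mice between 4.92 and 5.98. Mki67, the proliferation marker, was 7.72 and 7.71 in those 2 mice, between 6.01 and 7.05 in the other HZ mice and between 5.96 and 6.90 in WT mice. Kif11, a motor of the mitotic spindle, had the same order, at 7.22 and 7.29 beside 6.50 at most in the others. Without HZ VPA replicates 4 and 8, left out after their values were seen, the list's median was 0.01 with 10 of 19 members higher, and Top2a differed by 0.12.

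Pcna depended less on these mice. Its lowest, median and highest levels were 10.20, 10.32 and 10.71 in HZ and 9.77, 10.13 and 10.49 in WT mice, and all 8 HZ mice lay above the WT mean. Without HZ VPA replicates 4 and 8 its difference was 0.18. Between HZ and WT mice given saline Pcna differed by -0.25, and the change under VPA minus that under saline was 0.52 (SE 0.15, adjusted p = 0.442 from limma). A further probeset of the gene gave 0.27.

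HZ VPA replicates 4 and 8 also stood highest for genes of the acute phase, the set of liver proteins secreted in inflammation. Apcs, serum amyloid P, was 12.94 and 12.80 in them, between 10.97 and 11.64 in the other HZ mice and between 10.50 and 12.00 in WT mice. Saa1, serum amyloid A, was 10.25 and 10.03 in them, at most 7.64 in the other HZ mice, and 9.78 in WT VPA replicate 5 beside 7.70 at most in the other WT mice. Mt2, a metallothionein that binds zinc, was 11.84 and 12.15 in them and at most 10.96 in any other mouse. Of 18 acute phase genes 15 were higher in HZ mice, with a median of 0.06. Apcs (0.56, SE 0.26) and Fga, a chain of fibrinogen (0.13, SE 0.06), had an unadjusted p under 0.05, 11.1% of the list beside 2.54% of all genes. Without these mice 6 of 18 were higher and the median was -0.04. No label separates them from the other HZ mice.

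**Figure D5:**
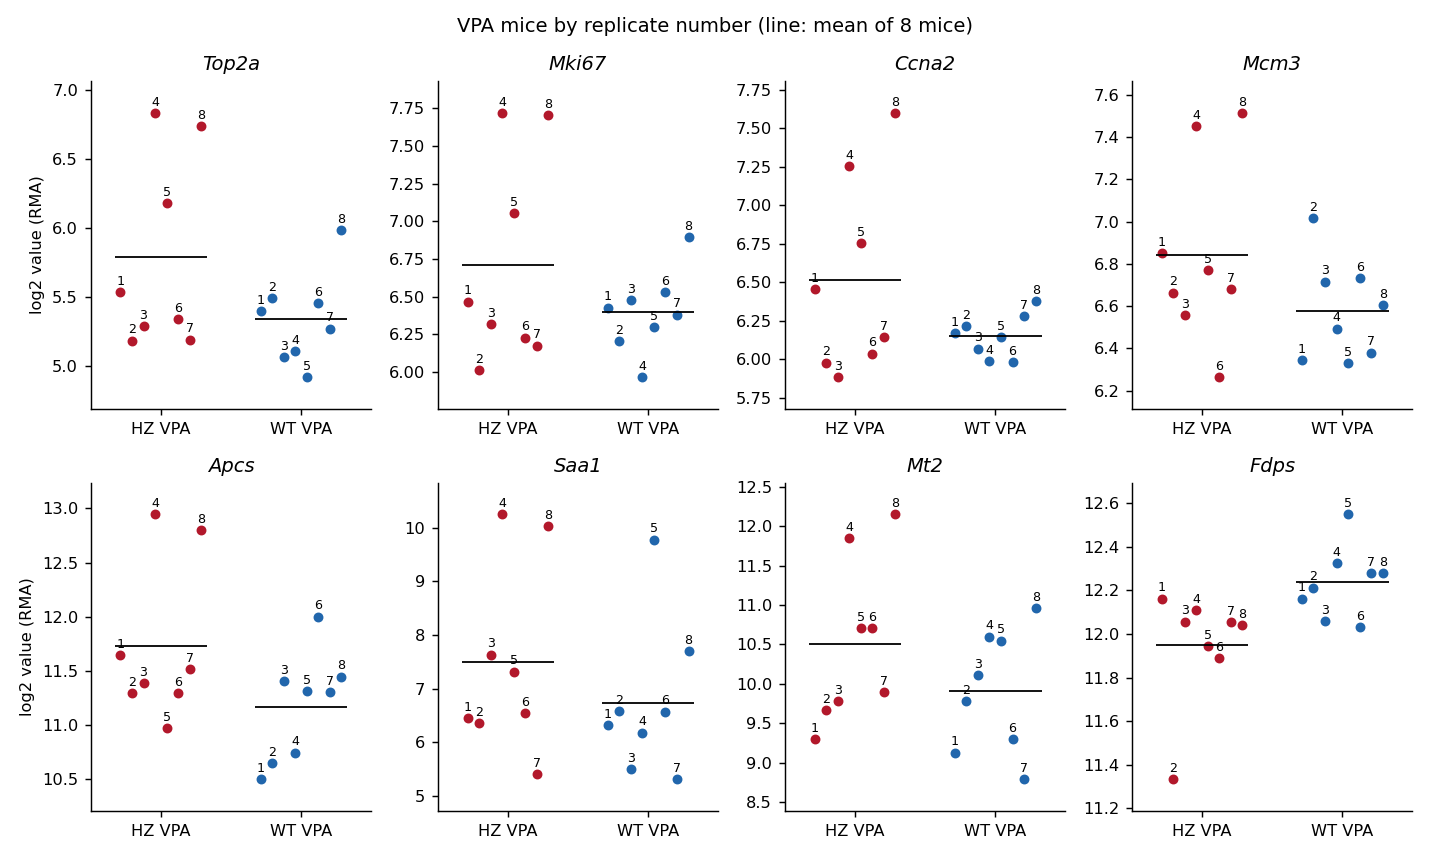
Levels (log2, RMA) of Top2a, Mki67, Ccna2, Mcm3, Apcs, Saa1, Mt2 and Fdps in HZ and WT mice given VPA, with 1 point per mouse, its replicate number above it and the group mean as a line. HZ replicates 4 and 8 are the highest HZ mice for the first 7 genes (Top2a 6.83 and 6.74), and HZ replicate 2 is the lowest for Fdps (11.33).

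Kupffer cells, the macrophages of the liver, had markers that were higher in HZ mice given VPA for 12 of 12 genes, by a median of 0.11, with none at an unadjusted p under 0.05. The mean level of the 12 markers ran from 8.88 to 9.43 in HZ and from 8.08 to 9.59 in WT mice. The low end was WT VPA replicate 7, and without it the median was -0.04 and 4 of 12 markers were higher. Cd5l, a protein secreted by these cells, shows the pattern, with 9.52 to 10.38 in HZ and 8.60 to 10.30 in WT mice, a difference of 0.29 (SE 0.19) that became 0.15 without that mouse. In saline mice the order was the reverse, as the markers had a median of -0.42, with means from 8.16 to 9.01 in HZ and from 8.10 to 9.33 in WT mice. For 4 of the 12 the difference between the treatments was positive with an unadjusted p under 0.05. Over all 19938 genes, 697 positive and 1058 negative differences passed it. Markers of sinusoidal endothelium had a median of 0.01 in VPA and -0.26 in saline mice, and those of stellate cells 0.03 and -0.22. In whole liver fewer cells of a type and less RNA per cell cannot be told apart. Of 5 cholangiocyte markers 1 was higher and the median was -0.08, with Epcam, an adhesion protein of bile duct cells, at -0.15 (SE 0.06), and lymphocyte and neutrophil markers had medians of 0.005 and -0.03. The part of cell types in the other differences was not tested.

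The ER stress response is the pathway most tied to wolframin. Of 29 measured genes 13 were higher and 16 lower in HZ mice given VPA, the median was -0.001, and none had an unadjusted p under 0.05. Without WT VPA replicate 4 the number higher was 22 and the median 0.05, and without HZ VPA replicates 4 and 8 it was 8 and -0.04. Hspa5, the main chaperone of the ER lumen, lay between 12.26 and 12.73 in HZ and between 12.27 and 13.12 in WT mice (difference -0.10, SE 0.11). The 11 histone deacetylases measured, the class of enzymes VPA inhibits, differed by -0.07 to 0.10. Targets of PPAR receptors and fatty acid oxidation genes, 24 in all, had a median of 0.0007, and 12 were higher. The remaining list members with an unadjusted p under 0.05 were scattered. Higher were Egr1, an immediate early transcription factor (0.76, SE 0.36), Socs3, an inhibitor of cytokine signals (0.21, SE 0.09, with 0.04 for its other probeset), and Gadd45a, a stress gene of the p53 pathway (0.19, SE 0.08), and lower was the interferon-stimulated Oas1a (-0.25, SE 0.10). A list of 12 genes that the study had itself named for VPA effects on these samples, and which is no independent evidence, had a median of -0.03. In it Piezo2 and Pcna were higher and Ppard lower at an unadjusted p under 0.05, 25% of the list beside 2.54% of all genes.

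Besides Wfs1, 4 genes chosen for qRT-PCR were examined one by one, with two-sided exact permutation tests. Ppard, a nuclear receptor of fatty acid oxidation, had 8.75, 9.00 and 9.57 as its lowest, median and highest level in HZ and 8.46, 9.54 and 10.04 in WT mice given VPA. The HZ mice lay inside the WT range, and 4 WT mice were above all HZ mice. The difference was -0.38 (SE 0.15, adjusted p = 1 from limma, exact permutation test p = 0.119). With an array left out it ran from -0.52 without WT VPA replicate 7 to -0.29 without WT VPA replicate 4. KO mice were 0.81 below the same WT mice. The leptin receptor Lepr lay between 5.84 and 6.41 in HZ and between 6.00 and 7.01 in WT mice and differed by -0.23 (exact permutation test p = 0.110), or by -0.14 without WT VPA replicate 7. Fmo2, a flavin monooxygenase, lay between 6.59 and 7.24 in HZ and between 6.47 and 7.14 in WT mice and differed by 0.10 (exact permutation test p = 0.317), or by 0.05 without WT VPA replicate 2 and 0.15 without HZ VPA replicate 5. It differed by 0.80 between HZ and WT mice given saline (adjusted p = 0.302 from limma).

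Sult3a1, a sulfotransferase more abundant in female liver, was dim in both genotypes under VPA. It lay between 3.48 and 3.58 in 7 HZ mice, at 5.08 in HZ VPA replicate 6, and between 3.14 and 3.63 in WT mice. All 8 HZ mice were above the WT mean of 3.34. The difference was 0.40, with p = 0.00249 in the exact permutation test and an adjusted p of 1 from limma, whose estimate of the spread includes the KO mice. It was 0.21 without that mouse. The sex-biased genes were also described as groups. Of 23 male-biased genes 7 were higher in HZ mice given VPA, with a median of -0.04, and of 23 female-biased genes 12 were higher, with a median of 0.06. Both turned without HZ VPA replicates 4 and 8, to 16 male-biased genes higher with a median of 0.04 and 6 female-biased genes higher with a median of -0.04. The female-biased Cyp17a1, an enzyme of steroid synthesis, had the largest difference among them, with 7.95 to 9.08 in HZ and 8.45 to 10.80 in WT mice. All 8 HZ mice lay below the WT mean (-0.82, SE 0.44), and the difference had an adjusted p of 1.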

How the data were processed

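Liver RNA (300 ng per mouse, RNA integrity number 7 to 9) had been labelled and hybridised to Affymetrix Mouse Gene 1.0 ST arrays. The authors deposited log2 values of 35556 probesets, made with RMA in Expression Console (Affymetrix, version 1.1.2800.28061 per the submitters' processing notes), so background correction, quantile normalization and probe summary preceded every step here. Single probes and exons were not analysed. All arrays were kept and the values were used as deposited. Groups were taken from the sample titles.

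A mean per group was fitted to all 48 arrays (6 groups of 8, with 42 residual degrees of freedom) with limma 3.58.1 in R 4.3.3, after the two-way design of the study, and moderated by eBayes. Contrasts were HZ minus WT under VPA, the same under saline, their difference, and KO minus WT within each treatment. Tests were two-sided, adjusted by Benjamini-Hochberg over all probesets. Data were simulated for HZ against WT under VPA with all 35556 probesets and independent normal noise, with 100 probesets changed by 0.5 and 100 by 1. There 69% of changes of 0.5 and 93% of changes of 1 were recovered, and 8 unchanged probesets were called. For Abhd1, Wfs1 and the 4 other genes with qRT-PCR, exact permutation tests over 12870 splits were added.

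Of the probesets 21789 carried 1 gene symbol, 1621 several and 12146 none, and positions are those of GRCm38. Where a gene had several probesets, the one of highest mean over all arrays stood for it. Genes examined by name were those past the adjusted p, the 15 with the smallest p in each direction with a mean of at least 5, Wfs1, the genes with qRT-PCR, clock genes and list members with an unadjusted p under 0.05 or the 4 largest differences of their list. Genes of chromosome 5 called between KO and WT mice given saline and their neighbours, and Klk1b22, Mki67 and 4930584F24Rik, were named after their values were seen, and only part of the genes under the rule is printed. Klk1b22 and 4930584F24Rik were chosen for their values. The comparison, its members and all gene lists were chosen with earlier results of these data known. The labels give 1 mouse per array and do not say which mice shared a litter or cage.

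Alternatives were the 16, 24 or 32 arrays of the groups concerned, array weights, eBayes with trend and robust estimation, no moderation, median centring, only probesets with 1 symbol, only those with a mean of at least 5, a single probeset for each gene, a replicate block, an index of clock phase as a covariate, and leaving out each of the 16 arrays. Leaving out HZ VPA replicates 4 and 8 together was added after seeing the data. Figures were drawn with matplotlib 3.10.9.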

Additional observations from a re-analysis of the deposited data

Results flagged for a closer look

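Of the genes named in the report, 60 were examined for a mouse far from the other 7 of its group. Among the 120 groups of mice given VPA 7 were marked, close to the share of about 1 in 20 that chance alone marks. Abhd1 was marked for HZ VPA replicate 7, at 8.86 beside 10.11 for the next HZ mouse. Mas1 was marked in both genotypes, for HZ VPA replicate 3 at 5.38 beside 5.22 and for WT VPA replicate 2 at 5.83 beside 5.51. Sult3a1 was marked for HZ VPA replicate 6, at 5.08 beside 3.58. Fdps was marked for HZ VPA replicate 2, at 11.33 beside 11.89, and Usp2 for HZ VPA replicate 8, at 8.11 beside 7.47. Pnpla3 was marked for WT VPA replicate 2, at 10.79 beside 9.18. For the difference between VPA and saline mice in HZ against WT, no gene named here passed the adjusted p.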

How the results depend on the processing

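Abhd1 stayed past the adjusted p and higher in HZ mice under 12 of 13 other settings and with each of the 16 arrays left out (1.35 to 1.61 with an array left out), and its rise ranged from 1.33 to 1.61 over all of them. With only the 16 arrays of HZ and WT mice given VPA it was 1.41 with an adjusted p of 0.0854 and the count past the adjusted p was 0. That fit has fewer arrays and takes the spread from these groups alone, which include HZ VPA replicate 7 at 8.86. Why the adjusted p differed was not tested. The count was 1 with each array left out, and the probeset was Abhd1 each time.

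The unadjusted count of 1023 became 566 with only probesets of 1 gene symbol and 523 with 1 probeset per gene, where fewer probesets are tested, and 658 with HZ mice 4 and 8 left out together, a choice made after seeing the data. It ran from 727 without HZ VPA replicate 4 to 1715 without HZ VPA replicate 7. The count at the thresholds of the study ran from 1 to 2 with an array left out (2 without WT VPA replicate 3 or 5 or HZ VPA replicate 6 or 7), and 2 passed when the clock index entered as a covariate. For saline mice the count of 108 became 364 with array weights, 166 with 1 probeset per gene and 1 with the clock index as a covariate, and ran from 99 to 123 with an array left out. For the difference between VPA and saline the count of 0 became 12 with only the 32 arrays of HZ and WT mice, 4 with array weights and 2 with only probesets of 1 gene symbol, and ran from 0 to 3 with an array left out (3 without WT VPA replicate 5 or HZ VPA replicate 7, 1 without WT VPA replicate 8). For KO against WT mice given VPA the count of 144 became 2 with the clock index as a covariate and ran from 83 without WT VPA replicate 4 to 207 without WT VPA replicate 7. The clock index averaged -1.09 in HZ and -0.22 in WT mice given saline, with ranges that nearly met (highest HZ -0.689, lowest WT -0.686). The index thus differed with genotype, and for these mice the fit with it cannot separate clock phase from genotype. The causes of these shifts were not tested.

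With the clock index as a covariate the sign turned for Wfs1 (-0.00367), Arntl (0.0568), Clock (0.00272), Ciart (-0.18) and Dbp (-0.10), of which all but Wfs1 are part of the index. With HZ mice 4 and 8 left out it turned for Mki67 (-0.0219), Saa1 (-0.12) and Ciart (-0.0748). Wfs1 ran from -0.0733 to 0.0758 with an array left out. None of these passed the adjusted p. Of the 60 genes run under these settings, the others kept their direction in all of them.

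The replicate number, which titles give in every group, was not taken as a pairing. Same-numbered HZ and WT mice given VPA deviated together in 6 of 8 pairs (correlation over 0.1, mean 0.16 beside -0.02 for other numbers). Of the HZ mice, 3 of 8 were closest to the WT mouse of their own number, where chance alone gives about 1 in 8. The labels do not say what same-numbered mice shared. With the replicate block the counts were 1 for VPA, 162 for saline, 195 for KO under VPA and 5 for the difference between treatments, the unadjusted count was 1152, and Abhd1 rose by 1.41 (adjusted p = 8.54e-06 from limma). In the simulated data, with 100 probesets changed at each size, 69% of differences of 0.5 were recovered. Differences of that size can thus be missed with 8 mice per group. Fewer true changes, where the adjustment is stricter, were not simulated, so the share does not give the power for a single gene here.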
